A study of Mus musculus with 4 samples.

Results

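The 37 genes described here copy DNA or prepare a cell to do so in the G1/S transition of the cell cycle. They were taken from a fixed list by symbol, and 37 of 37 listed genes were present among the 13518 genes of the deposited table. The rule used symbols and no measured value, but the list was drawn up with earlier results of these data known. They were followed in T cell-rich single-cell libraries from tumours grown in C57BL/6 mice after orthotopic implantation of MC38, a mouse colon carcinoma line. The anti-PD-1 arm received an antibody to the inhibitory T cell receptor PD-1 on a schedule of 3 doses a week and 5 doses in all. The ATT-I arm received Atractylenolide I, a plant sesquiterpene lactone, at 50 mg/kg daily. The combination arm received both agents, and the vehicle arm neither; the sample entry of that last arm calls it untreated. In every arm 5 tumours were pooled 2 weeks after treatment began and made into 1 droplet library, so no arm has a replicate, the animals cannot be separated, and no test between treatments is possible. Comparisons between treatments below are therefore comparisons of single libraries, and those between gates, depth bands or cycle bins of anti-PD-1 describe cells of that 1 library.

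A cell copies its genome once per division in ordered steps. Before S phase, Cdc6 and Cdt1 load the ring of Mcm proteins onto origins; cyclin E kinase then helps Cdc45 and the GINS complex turn that ring into the active helicase, and polymerases, the Pcna clamp and ligases follow at the fork. E2F transcription factors switch on many of these genes as cells leave G1. In tumours, T cells that meet antigen divide, and these transcripts are widely used to recognise them.

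The deposited values were returned to whole UMIs (unique molecular identifiers, which count captured transcript molecules). A level is the mean over cells of a gene's UMIs per 10000 UMIs of the cell; it is not scaled by gene length, because a UMI marks a molecule and not a fragment. The libraries held 12562 anti-PD-1, 297 ATT-I, 199 combination and 155 vehicle cells, with 108628721, 2878355, 5232593 and 3099824 UMIs in total. Median depth was 7148, 6828, 23927 and 16129 UMIs a cell in the same order, and 1 cell barcode occurred in more than 1 library. The T cell marker list summed to 59.5, 44.3, 39.3 and 37.6 UMIs per 10000, and the 6 measured epithelial or tumour markers summed to at most 0.419 in any library, with Krt19 and Cldn7 at 0 in the combination and Krt8 at 0 in vehicle. The labelled tissue is the tumour, yet the cells described are by these markers mainly T cells. ATT-I stood apart in red cell genes, which summed to 30.5 UMIs per 10000 against 0.086 in vehicle, and NK cell markers summed to 3.45 in anti-PD-1, 2.72 in ATT-I, 0.739 in the combination and 5.39 in vehicle. The part of either in the results below was not tested.

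Promoters of the members are shown first because a short sequence that E2F factors are known to bind recurs in several of them. RefSeq promoters of 300 bases (250 before and 50 after the start, build GRCm38.p6) matched 31 of the 37 members. Gins1, Gins2, Dscc1, Mcm4, Ccne2 and Esco2 had no entry. Only the first listed start of each gene was used, and other starts were not searched. The E2F word searched was TTTCCCGC, TTTCGCGC, TTTGCCGC or TTTGGCGC on either strand. It was found in 10 of the 31 (32.3%) and in 626 of 27025 promoters overall (2.32%). The 10 were Mcm3, Mcm5, Mcm6, Mcm7, Cdc6, Cdt1, Cdca7, Pola1, Clspn and Hells. Windows of 80 bases around it are given for helicase loading and checkpoint genes, 5′ to 3′ on the gene's own strand, with the word in capitals; where words on opposite strands overlap, as in Mcm5 and Mcm6, the capitals run through both.
Mcm3: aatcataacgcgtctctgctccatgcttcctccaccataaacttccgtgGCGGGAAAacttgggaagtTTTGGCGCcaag
Mcm5: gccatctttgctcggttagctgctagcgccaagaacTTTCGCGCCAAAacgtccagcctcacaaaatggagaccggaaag
Mcm6: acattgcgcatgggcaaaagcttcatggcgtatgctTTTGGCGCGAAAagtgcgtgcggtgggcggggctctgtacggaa
Mcm7: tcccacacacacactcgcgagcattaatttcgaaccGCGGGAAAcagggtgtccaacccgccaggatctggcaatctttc
Cdc6: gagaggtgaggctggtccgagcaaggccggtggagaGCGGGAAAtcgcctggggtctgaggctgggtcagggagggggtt
Clspn: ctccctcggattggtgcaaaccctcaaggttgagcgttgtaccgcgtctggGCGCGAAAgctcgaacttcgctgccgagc
These windows lie at chr1:20820263-20820342 on the minus strand (Mcm3), chr8:75109320-75109399 on the plus strand (Mcm5), chr1:128359772-128359851 on the minus strand (Mcm6), chr5:138172005-138172084 on the minus strand (Mcm7), chr11:98907977-98908056 on the plus strand (Cdc6) and chr4:126556950-126557029 on the plus strand (Clspn).

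For other words the members were closer to promoters in general. CCAAT on either strand was in 58.1% of the 31 members and 37.9% of all promoters, GGGCGG in 71.0% and 35.9%, and TTTGAA in 12.9% and 18.1%. Whole promoters of E2f8 and Rpa2 are shown because these members lie at opposite ends of the comparison between the combination and anti-PD-1 in CD8-gated cells. Neither holds the E2F word as spelled here, which says only that those letters are not in these windows. Capitals mark CCAAT and GGGCGG on either strand.
E2f8: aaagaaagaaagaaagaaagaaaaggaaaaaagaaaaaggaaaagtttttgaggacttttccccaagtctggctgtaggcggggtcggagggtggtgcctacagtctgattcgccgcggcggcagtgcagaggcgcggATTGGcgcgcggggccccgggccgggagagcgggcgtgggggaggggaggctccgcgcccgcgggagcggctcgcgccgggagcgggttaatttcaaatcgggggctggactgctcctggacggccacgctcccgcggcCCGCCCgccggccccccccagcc
Rpa2: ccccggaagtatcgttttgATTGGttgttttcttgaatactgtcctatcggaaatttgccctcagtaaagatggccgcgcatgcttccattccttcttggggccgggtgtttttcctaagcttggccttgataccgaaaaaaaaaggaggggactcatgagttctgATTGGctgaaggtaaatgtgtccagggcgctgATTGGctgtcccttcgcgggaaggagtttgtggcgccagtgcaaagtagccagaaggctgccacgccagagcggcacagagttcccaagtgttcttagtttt
The E2f8 window is at chr7:48881547-48881846 on the minus strand, and that of Rpa2 at chr4:132768110-132768409 on the plus strand. The E2f8 window lies inside the annotated gene, which ends at position 48882073, so it is not the region before the outermost start.

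Over all cells, replication transcripts were lower in the anti-PD-1 and ATT-I libraries than in vehicle, and a little higher in the combination. The last of these did not hold when depth bands were weighted equally, as given at the end of the paragraph. The 37 members summed to 15.6 UMIs per 10000 in anti-PD-1, 14.3 in ATT-I, 34.0 in the combination and 28.3 in vehicle. A difference was counted at 1.5-fold, among genes detected in 10% or more of cells on either side of the comparison. Against vehicle, 0 of 37 members were higher and 24 lower in anti-PD-1, beside 6.48% and 36.1% of all genes tested; the members' median log2 ratio was -0.88 and that of all genes -0.34. In ATT-I 0 were higher and 30 lower, beside 3.88% and 36.3% of all genes, with medians of -0.91 and -0.38. In the combination 5 were higher (Cdc6, Gins1, Gins2, Shmt1 and Ung) and 1 lower (Neil3), beside 4.9% and 16.3%, with medians of 0.28 and -0.11. These 3 comparisons share the vehicle library of 155 cells. Cells differed in depth between the libraries. With equal weight for each depth band holding 10 or more cells on both sides, the medians were -0.18 for anti-PD-1, -0.17 for ATT-I and -0.04 for the combination, beside -0.37, -0.37 and -0.08 over all genes. For the combination the bands differed, at -0.64 from 6000 to 12000 UMIs, -0.45 from 12000 to 24000 and 0.35 from 24000. Over all genes these were -0.07, -0.06 and -0.03.

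The combination stood above each single treatment. Against anti-PD-1, 33 members were higher and 0 lower, beside 26.0% and 8.45% of all genes, and the median log2 ratio was 1.11 (0.19 over all genes). Against ATT-I, 33 were higher and 0 lower, beside 28.2% and 7.21%, with medians of 1.21 and 0.25. Both comparisons share the combination library. With equal weight per depth band these medians were -0.04 and 0.05, beside 0.25 and 0.23 over all genes, so the members then lay below the typical gene. By band, the median over anti-PD-1 was -0.43 from 6000 to 12000 UMIs, -0.14 from 12000 to 24000 and 0.17 from 24000. Over all genes these were 0.31, 0.26 and 0.16.

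The libraries differed in which T cells they held, so the members were read again within gates. CD8-gated cells have at least 3 UMIs of Cd8a and Cd8b1 together and at least 3 times as many as of Cd4. They numbered 8459 in anti-PD-1, 108 in ATT-I, 118 in the combination and 48 in vehicle. The share of cells in this gate was 67.3%, 36.4%, 59.3% and 31.0% (exact 95% intervals 66.5 to 68.2, 30.9 to 42.1, 52.1 to 66.2 and 23.8 to 38.9). Summed member level in the gate was 17.1 in anti-PD-1, 19.5 in ATT-I, 42.3 in the combination and 44.1 in vehicle. Here the combination and vehicle lay close together, well above the single treatments.

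**Figure D1:**
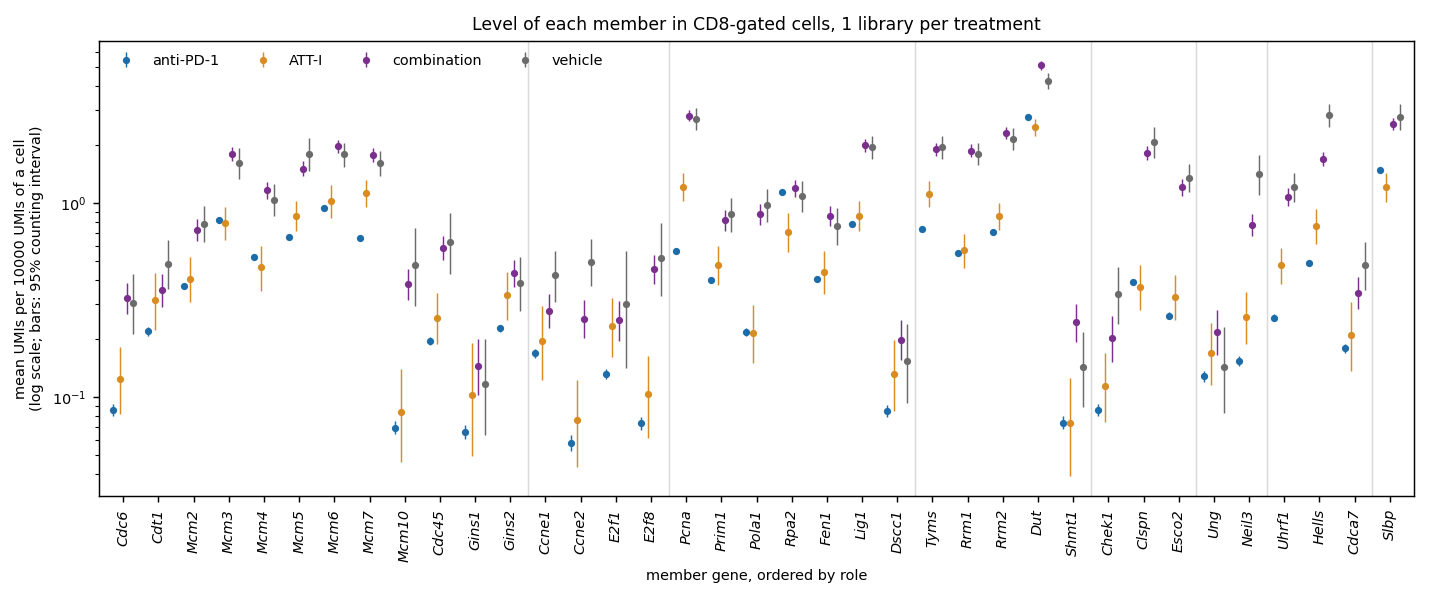
Level of each of the 37 members (mean UMIs per 10000 UMIs of a cell, log scale) in CD8-gated cells of the anti-PD-1, ATT-I, combination and vehicle libraries, with 95% counting intervals; grey lines divide the members by role. For most members the combination and vehicle points lie together above those of anti-PD-1 and ATT-I, while Rpa2 and Ung show less spread between libraries.

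Within the CD8 gate the differences between single treatments and vehicle were larger than over all cells when cells of every depth were averaged. Against vehicle, 0 members were higher and 35 lower in anti-PD-1, beside 10.3% and 38.8% of all genes, with a median log2 ratio of -1.34 (-0.35 over all genes). In ATT-I 0 were higher and 31 lower, beside 7.7% and 40.9%, with medians of -1.16 and -0.40. In the combination 2 were higher (Shmt1 and Ung) and 5 lower (Ccne1, Ccne2, Chek1, Hells and Neil3), beside 7.33% and 20.9%, with medians of -0.10 and -0.12. The combination had 36 higher and 0 lower members against anti-PD-1 (27.6% and 10.7% of all genes, medians 1.23 and 0.19), and 30 higher and 0 lower against ATT-I (32.4% and 10.5%, medians 1.08 and 0.28). With equal weight for the 2 bands from 12000 UMIs, the only ones with 10 or more vehicle cells, the medians were -0.20 for anti-PD-1, -0.13 for ATT-I and -0.05 for the combination against vehicle (-0.39, -0.31 and -0.09 over all genes). That weighting used 2040 anti-PD-1, 45 ATT-I, 112 combination and 47 vehicle cells. Median depth still differed between anti-PD-1, combination and vehicle cells within each band. In cells of 5000 to 20000 UMIs, where 14 vehicle cells remained, anti-PD-1 and ATT-I kept medians of -1.13 and -1.01 (-0.48 and -0.55 over all genes). Depth was not equal in that window, the median anti-PD-1 cell having 8572.5 UMIs, the median ATT-I cell 9420.5 and the median vehicle cell 16241.

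**Figure D2:**
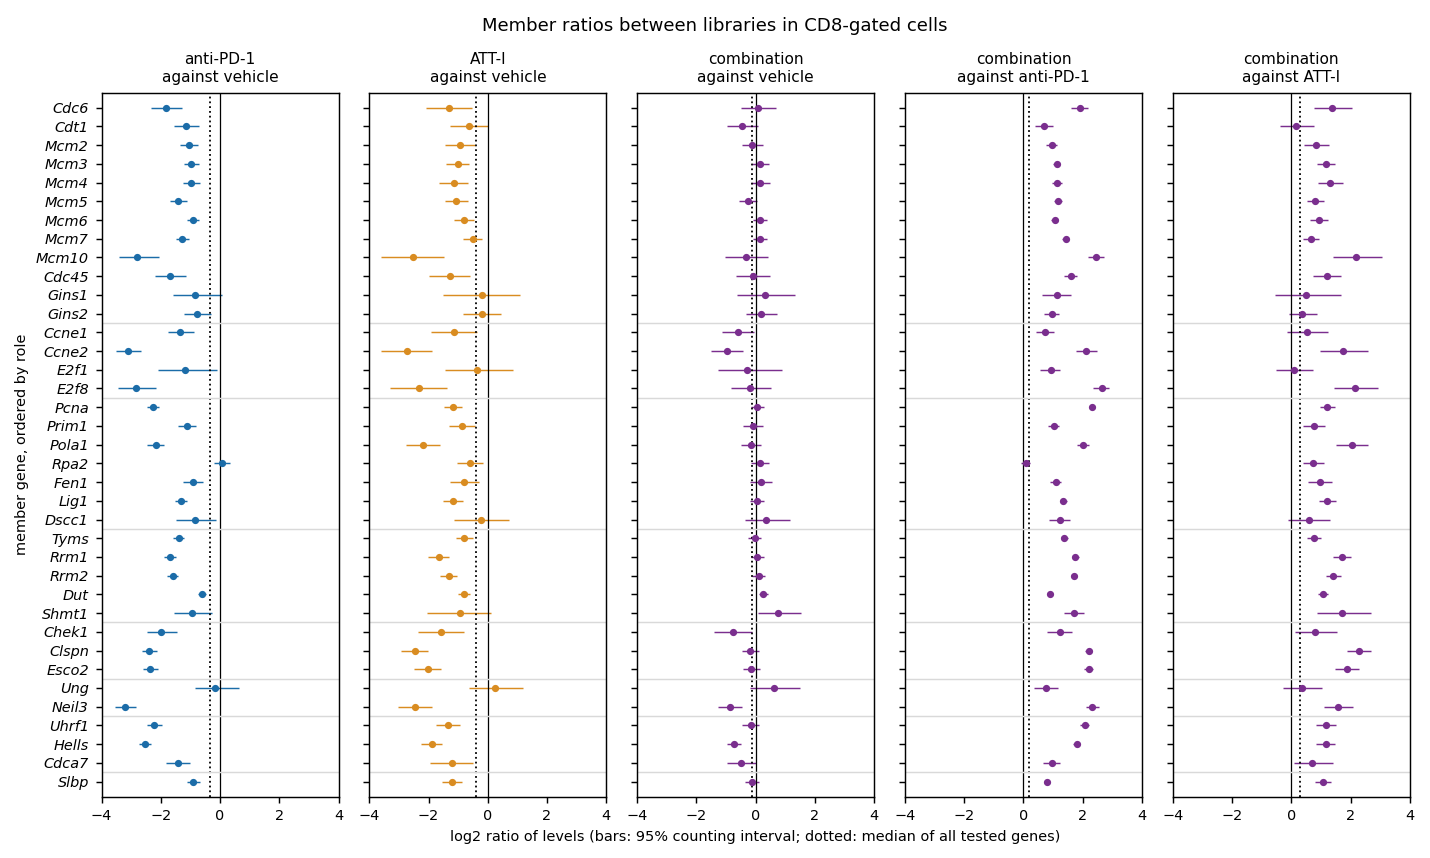
Log2 ratio of each member's level between libraries in CD8-gated cells, for 5 comparisons, with 95% counting intervals; the solid line marks 0 and the dotted line the median of all tested genes. Nearly all members lie left of 0 for anti-PD-1 and ATT-I against vehicle, around 0 for the combination against vehicle, and right of 0 for the combination against each single treatment.

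Origin licensing and helicase genes made up 12 of the members. In CD8-gated cells 12 of 12 were lower than in vehicle in anti-PD-1 and 9 of 12 in ATT-I. Of all genes, 38.8% and 40.9% were lower. Between the combination and vehicle 0 of 12 differed by 1.5-fold, beside 7.33% of all genes higher and 20.9% lower. Cells were not matched for depth in these counts, nor in the counts and ratios by role that follow. Mcm6, a subunit of the helicase ring and the member of this group with the most UMIs, was at 0.873 UMIs per 10000 in anti-PD-1, 0.789 in ATT-I, 1.77 in the combination and 1.251 in vehicle over all cells. The other ring subunits, Mcm2, Mcm3, Mcm4, Mcm5 and Mcm7, had log2 ratios in CD8-gated cells between -1.42 and -0.97 for anti-PD-1 against vehicle and between 0.95 and 1.42 for the combination against anti-PD-1. Mcm6 had -0.92 and 1.06 in those comparisons, so all 6 ring genes lay within a narrow range.

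Mcm10, which helps activate the loaded helicase, differed more. Over all cells its level was 0.0593 in anti-PD-1, 0.0499 in ATT-I, 0.288 in the combination and 0.223 in vehicle. In CD8-gated cells the log2 ratio was -2.79 for anti-PD-1 against vehicle (95% counting interval -3.43 to -2.07) and 2.45 for the combination against anti-PD-1 (2.16 to 2.73). Among the loading factors, Cdc6 had log2 ratios of -1.83 and 1.91 in the same comparisons, and Cdt1, its partner, -1.16 and 0.70. Over all cells Cdt1 was at 0.205 in anti-PD-1, 0.185 in ATT-I, 0.272 in the combination and 0.362 in vehicle. Cdc45, which joins the ring to form the moving helicase, had log2 ratios of -1.70 and 1.59.

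The GINS subunits Gins1 and Gins2 complete that helicase and had the log2 ratios nearest to 0 in this group for anti-PD-1 and ATT-I against vehicle in CD8-gated cells. Gins1 was the member with the fewest UMIs and was at 0.0607 in anti-PD-1, 0.0789 in ATT-I, 0.110 in the combination and 0.0671 in vehicle over all cells. Gins2 was at 0.205, 0.218, 0.374 and 0.227 in the same order. For ATT-I against vehicle in CD8-gated cells, the counting intervals of both included 0 (Gins1 -1.52 to 1.10, Gins2 -0.83 to 0.43).

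Cyclin E and E2F genes drive and time the entry into S phase. Ccne1 and Ccne2 encode the cyclins E, E2f1 an activating E2F factor and E2f8 an atypical, repressing one. In CD8-gated cells 4 of 4 were lower in anti-PD-1 than in vehicle, beside 38.8% of all genes. Ccne2 was at 0.0539 in anti-PD-1, 0.0854 in ATT-I, 0.206 in the combination and 0.276 in vehicle over all cells; Ccne1 was at 0.150, 0.153, 0.205 and 0.275. Both were highest in vehicle. In CD8-gated cells the combination remained below vehicle for Ccne2 (log2 ratio -0.97, interval -1.49 to -0.44) and Ccne1 (-0.61, -1.13 to -0.06). E2f8 was at 0.0642 in anti-PD-1, 0.0667 in ATT-I, 0.311 in the combination and 0.282 in vehicle over all cells, and had the highest log2 ratio of any member for the combination against anti-PD-1 in CD8-gated cells (2.63, 2.36 to 2.90). E2f1 differed less, with a log2 ratio of 0.91 there.

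Fork genes include Pcna, the sliding clamp; Prim1 and Pola1, which lay down primers; Fen1 and Lig1, which process and seal Okazaki fragments; Rpa2, a subunit of the single-strand binding complex; and Dscc1, part of a clamp-loading complex. Lig1 had the most UMIs of these and was at 0.814 in anti-PD-1, 0.810 in ATT-I, 1.88 in the combination and 1.496 in vehicle over all cells. Pcna was at 0.538, 0.926, 2.35 and 1.93 in that order. The gap between anti-PD-1 and vehicle was wider for Pcna than for Lig1: the CD8-gated log2 ratio against vehicle was -2.27 (-2.46 to -2.07) for Pcna and -1.31 (-1.51 to -1.11) for Lig1. Pola1 had a ratio of -2.17, Prim1 -1.13, Fen1 -0.92 and Dscc1 -0.86.

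Rpa2 was the exception among fork genes. Over all cells it was at 0.933 in anti-PD-1, 0.490 in ATT-I, 0.913 in the combination and 0.752 in vehicle. In CD8-gated cells the log2 ratio was 0.07 for anti-PD-1 against vehicle (-0.19 to 0.34) and 0.07 for the combination against anti-PD-1 (-0.08 to 0.22), so neither difference exceeded its counting error. ATT-I was the low library for this gene, at -0.60 against vehicle (-1.04 to -0.18).

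Nucleotide supply genes make the building blocks. Dut, which removes dUTP and yields the precursor of dTTP, had the most UMIs of all members. Over all cells it was at 2.46 in anti-PD-1, 1.67 in ATT-I, 3.93 in the combination and 2.66 in vehicle. Its CD8-gated log2 ratio against vehicle was -0.62 for anti-PD-1 (-0.76 to -0.48), -0.80 for ATT-I (-1.003 to -0.59) and 0.26 for the combination (0.11 to 0.42). The ribonucleotide reductase subunits Rrm1 and Rrm2 had ratios of -1.70 and -1.60 in anti-PD-1, and Tyms, thymidylate synthase, -1.40. Shmt1, a folate-cycle enzyme, was at 0.0654 in anti-PD-1, 0.0748 in ATT-I, 0.203 in the combination and 0.0853 in vehicle over all cells. The combination was the only library in which Shmt1 was over 0.1 over all cells, and its all-cell log2 ratio to vehicle was 1.251 (0.57 to 1.97). In CD8-gated cells Shmt1 was at 0.242 in the combination and 0.143 in vehicle.

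Checkpoint and cohesion genes had the lowest median log2 ratio of the role groups against vehicle in CD8-gated cells, at -2.36 in anti-PD-1 and -2.03 in ATT-I. Clspn, an adaptor that helps activate the checkpoint kinase Chek1, was at 0.334 in anti-PD-1, 0.243 in ATT-I, 1.29 in the combination and 1.17 in vehicle over all cells. In CD8-gated cells Clspn, Chek1 and Esco2, which acetylates cohesin in S phase, had log2 ratios against vehicle of -2.38, -1.99 and -2.36 in anti-PD-1. The same genes had -2.48, -1.57 and -2.03 in ATT-I.

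Base excision repair genes went different ways. Neil3, a DNA glycosylase, was at 0.138 in anti-PD-1, 0.160 in ATT-I, 0.502 in the combination and 0.926 in vehicle over all cells. It had the lowest CD8-gated log2 ratio of any member for anti-PD-1 against vehicle (-3.20, -3.55 to -2.84) and stayed below vehicle in the combination (-0.88, -1.26 to -0.48). Ung, which removes uracil from DNA, was at 0.122, 0.153, 0.210 and 0.137 in the same library order, and its CD8-gated ratio for anti-PD-1 against vehicle was -0.16 (-0.85 to 0.63).

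Genes that copy chromatin marks were Uhrf1, which brings DNA methylation to newly copied DNA, Hells, a chromatin remodeller, and Cdca7, its partner. Hells was at 0.433 in anti-PD-1, 0.641 in ATT-I, 1.41 in the combination and 1.55 in vehicle over all cells. In CD8-gated cells its log2 ratio against vehicle was -2.54 for anti-PD-1, -1.90 for ATT-I and -0.75 for the combination (-0.98 to -0.51). Uhrf1 had -2.23, -1.34 and -0.17, and Cdca7 -1.43, -1.20 and -0.48. Slbp, which binds the stem-loop of replication-dependent histone mRNAs, was at 1.41 in anti-PD-1, 1.26 in ATT-I, 2.11 in the combination and 2.05 in vehicle over all cells, with CD8-gated ratios of -0.91, -1.20 and -0.12.

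Other genes of the cycle were also lower in anti-PD-1 and ATT-I than in vehicle in CD8-gated cells. Of 54 other replication genes, 47 were lower in anti-PD-1 than in vehicle, 40 were lower in ATT-I and 10 in the combination, with medians of -1.253, -1.241 and -0.13. Of 25 G1/S control genes tested among 26 measured, 18, 18 and 5 were lower (medians -1.17, -1.28 and -0.34). The share of all genes lower than in vehicle was 38.8% for anti-PD-1, 40.9% for ATT-I and 20.9% for the combination. Medians over all genes were -0.35, -0.40 and -0.12. The combination's counts in both lists therefore did not exceed its share of all genes. All 29 measured G2/M genes, which serve mitosis, were lower in anti-PD-1 and in ATT-I than in vehicle, with medians of -2.23 and -2.03. Replication-dependent histone genes had the widest gap for anti-PD-1, with 57 of 57 tested (61 measured) lower and a median of -3.26; in ATT-I it was 39 of 57 and -1.30. Values of the combination are not given for the G2/M and histone lists. Cells were not matched for depth in any of these counts.

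Cells varied widely within each library. In CD8-gated cells the summed member level of the median cell was 9.38 UMIs per 10000 in anti-PD-1, 9.35 in ATT-I, 41.5 in the combination and 43.7 in vehicle. The 90th percentile was 46.9, 53.7, 74.97 and 72.6, so each library held cells with many replication transcripts. The top 10% of cells held 36.1% of the summed level in anti-PD-1, 34.7% in ATT-I, 19.7% in the combination and 19.1% in vehicle. After every cell was thinned to 3000 UMIs, which left out 157, 3, 1 and 1 shallower cells, the median CD8-gated cell had a UMI of 3, 2, 9 and 10 members. Without thinning these medians were 5, 6, 26 and 26.

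**Figure D3:**
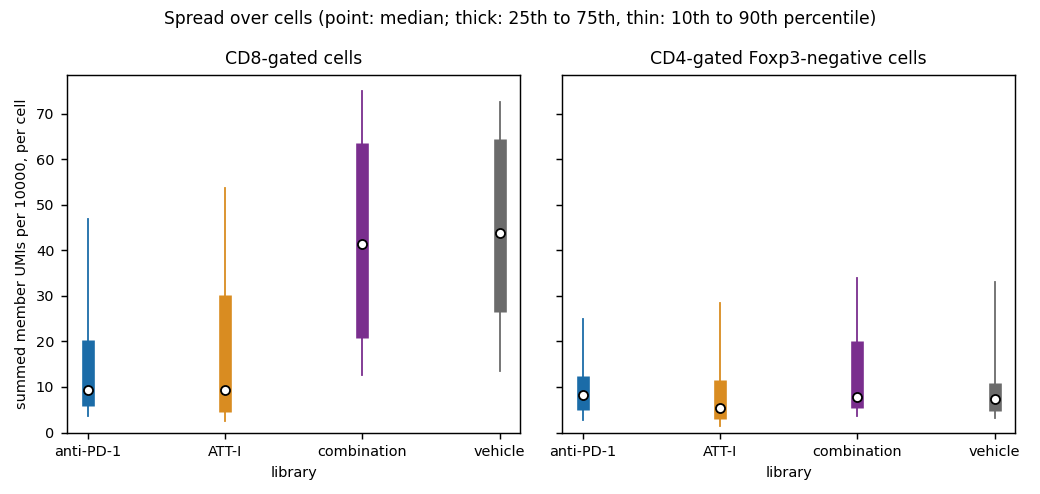
Summed UMIs of the 37 members per 10000 UMIs, over cells of each library, in CD8-gated cells and in CD4-gated Foxp3-negative cells; points are medians, thick bars the 25th to 75th and thin bars the 10th to 90th percentile. CD8-gated medians are 9.38 and 9.35 for anti-PD-1 and ATT-I against 41.5 and 43.7 for the combination and vehicle, whereas the CD4-gated medians lie between 5.44 and 8.18.

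CD4-gated Foxp3-negative cells, with at least 1 Cd4 UMI, no fewer Cd4 than CD8 coreceptor UMIs and no Foxp3 UMI, showed smaller differences. They numbered 1224 in anti-PD-1, 92 in ATT-I, 40 in the combination and 55 in vehicle. Summed member level was 12.3, 11.2, 16.2 and 14.2 in that order. The log2 ratio of these sums to vehicle takes in all 37 members and cells of every depth. It was -0.21 for anti-PD-1 (-0.31 to -0.11), -0.34 for ATT-I (-0.48 to -0.20) and 0.18 for the combination (0.049 to 0.32). Members were thinly covered here: 34 had a UMI in 10% or more of combination cells and 24 in 10% or more of vehicle cells, and Shmt1 had none in vehicle. The median ratio of the combination to vehicle turned on which members entered, at 0.45 for the 34 that passed through either library and 0.07 for the 23 that passed in both. Among members that passed in both, Mcm2 had a ratio of 1.41 (0.37 to 2.52), from 40 UMIs in the combination and 15 in vehicle, and Neil3 -2.35 (-3.81 to -1.14), from 7 and 45; these were chosen after their values were seen. Median depth in the gate was 12422 UMIs in the combination and 7673 in vehicle, and its part in the combination's values was not tested. For both single treatments the sign was opposite in the band from 6000 to 12000 UMIs. The vehicle sum was 7.49 there (29 cells), below 12.5 for anti-PD-1 (409 cells) and 13.1 for ATT-I (26 cells). The members' median log2 ratio to vehicle was 0.77 for anti-PD-1, over 20 members tested, and 0.78 for ATT-I, over 21. Over all genes these medians were -0.33 and -0.31. A member could enter the medians of this band through the single treatment alone, where the sum was higher. The medians were not repeated with another filter in this band, whereas the sums take in all 37 members. Among anti-PD-1 cells, the only library with 30 or more in the remaining gates, the summed level was 14.7 in 343 Foxp3-positive CD4-gated cells, the gate for regulatory T cells, and 17.6 in 512 cells gated on Klra6, a Ly49 receptor.

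Sequencing depth of the cell moved with the members. CD8-gated cells had a median of 8034 UMIs in anti-PD-1, 9256 in ATT-I, 28680 in the combination and 24502 in vehicle, and cells of at least 24000 UMIs made up 2.51%, 9.26%, 64.4% and 52.1%. Within anti-PD-1 alone, summed member level was 9.88 in cells under 6000 UMIs, 13.0 from 6000 to 12000, 32.8 from 12000 to 24000 and 39.1 from 24000. Between libraries, cells of the same depth band were closer. From 12000 to 24000 UMIs the sums were 32.8 in anti-PD-1, 32.5 in ATT-I, 32.4 in the combination and 39.9 in vehicle. From 24000 they were 39.1 in anti-PD-1, 49.0 in the combination and 46.5 in vehicle. The deepest band held 269, 99 and 53 cells of these libraries over all cells. Genes of 1 UMI were set to 0 in 37, 37 and 21 of them, which lowers members of few UMIs there. Vehicle had 22 and 25 CD8-gated cells in the bands from 12000 and from 24000, and depth was not equal within them. Median depth from 12000 to 24000 UMIs was 15256 in anti-PD-1, 16503 in ATT-I, 18596 in the combination and 19134.5 in vehicle. From 24000 it was 27564 in anti-PD-1, 35178 in the combination and 30545 in vehicle.

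**Figure D4:**
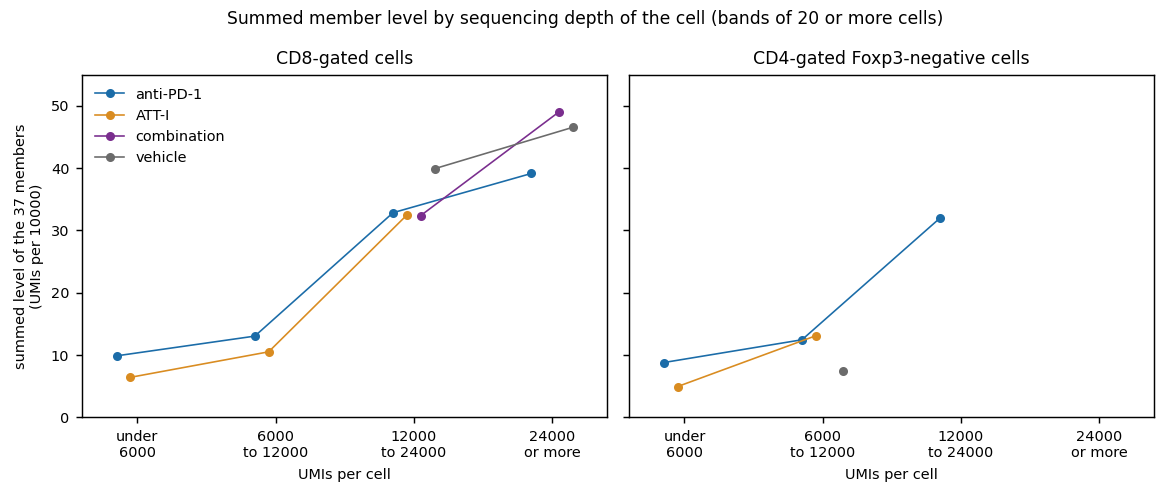
Summed level of the 37 members (UMIs per 10000) in bands of sequencing depth for each library, in CD8-gated and CD4-gated Foxp3-negative cells, for bands of 20 or more cells. In CD8-gated cells the level is 9.88 in the shallowest and 39.1 in the deepest band of anti-PD-1, and the libraries lie between 32.4 and 39.9 in the band from 12000 to 24000 UMIs.

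Member medians in these bands were nearer to 0 than in the whole gate. In CD8-gated cells of 12000 to 24000 UMIs, median log2 ratios were -0.21 for anti-PD-1, -0.26 for ATT-I and -0.23 for the combination against vehicle, and 0.09 over anti-PD-1 and -0.08 over ATT-I for the combination. Over all genes the medians were -0.37, -0.37, -0.05, 0.28 and 0.32 in the same order. The members thus lay above the typical gene for anti-PD-1 and ATT-I against vehicle, and below it for the combination over each single treatment, the opposite of their place over the whole gate. From 24000 UMIs they were -0.19 for anti-PD-1 against vehicle, 0.14 for the combination against vehicle and 0.20 for the combination against anti-PD-1, beside -0.35, -0.12 and 0.15 over all genes. A level is a share of the cell's UMIs and does not grow with depth by construction; the RNA content of a cell and the depth reached by its library cannot be told apart here.

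The share of cells rich in mitotic transcripts moved in the same way. CD8-gated cells were thinned to 3000 UMIs and binned by their UMIs of the G2/M list, which holds no member. Cells with 10 or more made up 15.6% of anti-PD-1 (exact 95% interval 14.9 to 16.4), 22.9% of ATT-I (15.2 to 32.1), 68.4% of the combination (59.1 to 76.7) and 74.5% of vehicle (59.7 to 86.1). These intervals take cells as the unit and hold no variation between animals or libraries. Near the bin's edge, with 8 to 11 such UMIs, lay 253 of 8302, 6 of 105, 11 of 117 and 4 of 47 cells. Within the bin, summed member level was 35.1 in anti-PD-1, 42.5 in the combination and 41.1 in vehicle, and the median log2 ratio against vehicle was -0.22 in anti-PD-1 and 0.09 in the combination (-0.31 and -0.11 over all genes). ATT-I had 24 cells in the bin, under the 30 set for a level; its sum was 31.2, and its median against vehicle -0.48 (-0.28 over all genes), the furthest from 0 of the 3 arms against vehicle. The median of the combination was 0.32 over anti-PD-1 and 0.50 over ATT-I (0.14 and 0.17 over all genes).

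Some members still differed among these cells, which were not matched for depth. Before thinning, the median cell of the bin had 14535.5 UMIs in anti-PD-1, 31742.5 in the combination and 25847 in vehicle. For anti-PD-1 against vehicle, the log2 ratio there was -1.97 for Ccne2 (-2.47 to -1.45), -1.57 for Hells (-1.78 to -1.35), -1.17 for Pcna (-1.39 to -0.95) and -1.10 for Neil3 (-1.38 to -0.81). Dut and Rpa2 were on the other side, at 0.43 (0.28 to 0.59) and 0.34 (0.04 to 0.66). For the combination against anti-PD-1, Pcna had a ratio of 1.36 (1.22 to 1.49) and Hells 1.01 (0.84 to 1.17), whereas Rrm2 had -0.09 (-0.22 to 0.03) and Tyms -0.08 (-0.23 to 0.06). These named members were chosen after their values were seen.

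Across the cycle, members of the anti-PD-1 CD8-gated cells ranged from a strong tie to G2/M content to nearly level expression. Between 1298 cells with 10 or more G2/M UMIs and 2153 cells with 0, Esco2 was 44.2-fold higher (log2 5.47, interval 5.03 to 5.94), E2f8 41.1-fold (5.36, 4.59 to 6.26) and Neil3 35.6-fold (5.16, 4.66 to 5.70). Rrm2 was 16.0-fold, Clspn 11.2-fold and Mcm10 9.68-fold higher. The ring genes differed far less, from 1.49-fold for Mcm6 to 3.20-fold for Mcm7, as did Rpa2 (1.5-fold) and Cdca7 (1.04-fold).

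Ung ran the other way, at 0.385 of its level in cells without G2/M UMIs (log2 -1.38, -1.77 to -0.999). In 31 members the level was highest in the bin of 10 or more; in the other 6, Mcm2, Mcm6, E2f1, Ung, Cdca7 and Shmt1, it was highest at 3 to 9. Binning the same cells by histone UMIs gave a like order, with Esco2 34.3-fold, E2f8 24.3-fold and Neil3 15.2-fold higher at 5 or more than at 0, and Cdca7 1.07-fold and Ung 0.92-fold. Among cells with 10 or more G2/M UMIs, the summed member level was 39.9 in the 1028 with 5 or more histone UMIs and 17.3 in the 45 with none.

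**Figure D5:**
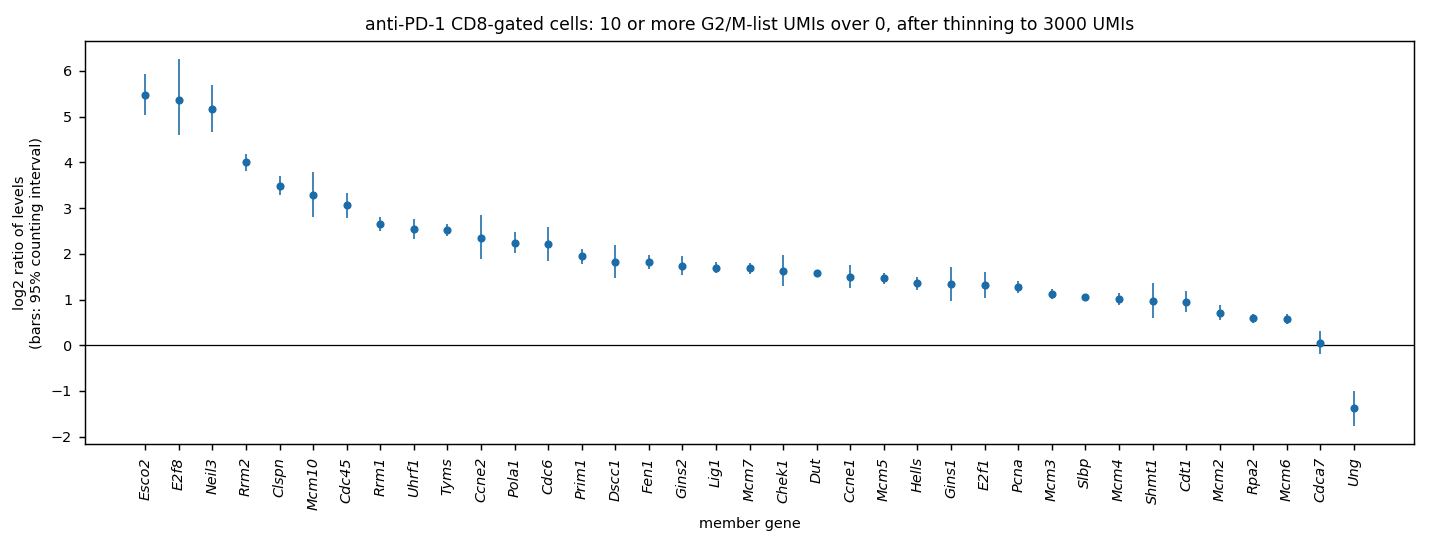
Log2 ratio of each member's level in anti-PD-1 CD8-gated cells with 10 or more G2/M-list UMIs over cells with 0, after thinning to 3000 UMIs, with 95% counting intervals, in descending order. Esco2, E2f8 and Neil3 lie above 5, Cdca7 at 0.05 and Ung at -1.38.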

How the data were processed

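Droplet single-cell RNA was measured in 4 pooled-tumour libraries. Build mm10, Cell Ranger and Seurat are named in the submitters' processing notes; versions and cell filters are not given in the sources used here. The authors deposited natural log values. A constant per library (0.248 anti-PD-1, 0.153 ATT-I, 0.225 combination, 0.247 vehicle), which no label explains, returned 100% of the authors' deposited non-zero values to whole UMIs within 0.02. The subtraction sets genes of 1 UMI to 0 in 37, 0, 37 and 21 deep cells, which were kept.

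Levels are means over cells of UMIs per 10000; ratios carry no pseudocount. Intervals (95%) are Poisson for levels, Clopper-Pearson for ratios and exact binomial for shares of cells, and cover counting error only. Those for shares take cells as the unit and hold no variation between animals or libraries. Those for levels and ratios use effective UMIs, which allow for cells of unequal depth. The intervals first planned used summed UMIs; on simulated data they covered the true ratio too rarely and were replaced. No doublet caller was run; cells with 3 or more UMIs of both coreceptors were left out as an alternative. Every library has 1 sample, so no p-value is given.

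All 37 members are named. Values in every library are given for the member with most UMIs in each role and for the 3 highest and 3 lowest ratios of each comparison over all cells. The members and lists were chosen with earlier results of these data known. Thinning used a fixed seed (11). Alternatives were other levels, filters, gates, folds and depth matching; leaving out cells with lost single UMIs, and other filters on members in CD4-gated cells, were chosen after seeing the data. The tools were scipy 1.17.1, numpy 2.4.6, matplotlib 3.10.9 and pandas 2.3.3 under Python 3.11.15.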

Additional observations from a re-analysis of the deposited data

Results flagged for a closer look

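The members' median log2 ratio for the combination against vehicle was -0.1022 in CD8-gated cells and 0.4516 in CD4-gated Foxp3-negative cells. It was picked out because the sign differs between the gates under the same contrast. The CD4-gated value takes in 11 members that reached 10% of cells in the combination alone. Over the 24 members that reached it in vehicle the median was -0.00012, over the 23 that reached it in both libraries 0.072, and with no filter 0.44 over 36 members, so the sign difference depends on the filter. All 37 members were tested in the CD8 gate. The difference was not tested, each gate has 1 library per treatment, and the CD4-gated value rests on 40 combination and 55 vehicle cells, which had median depths of 12422 and 7673 UMIs.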

How the results depend on the processing

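No paired analysis was possible because each arm has 1 library, and leaving out a replicate was not possible for the same reason. With equal weight per depth band, the members' median log2 ratio over all cells was -0.18 for anti-PD-1, -0.17 for ATT-I and -0.042 for the combination against vehicle, and -0.041 over anti-PD-1 and 0.049 over ATT-I for the combination; the sign for the combination against anti-PD-1 was thus opposite to the reported 1.11. The numbers higher and lower became 4 and 10, 4 and 10, 1 and 3, 5 and 3, and 6 and 3 in the same order, beside 9.07% and 39.9%, 5.36% and 38.6%, 6.57% and 14.0%, 31.8% and 9.01%, and 28.8% and 7.58% of all genes. In CD8-gated cells this weighting gave -0.20 for anti-PD-1 and -0.13 for ATT-I against vehicle, and 0.17 over anti-PD-1 and 0.037 over ATT-I for the combination. In cells of 5000 to 20000 UMIs the all-cell medians were -0.34 for anti-PD-1 and -0.27 for the combination against vehicle, and 0.15 over anti-PD-1 and 0.22 over ATT-I for the combination, and the CD8-gated ones -1.13 for anti-PD-1, -1.01 for ATT-I and -0.52 for the combination against vehicle and 0.60 over anti-PD-1 and 0.59 over ATT-I, from 14 vehicle and 27 combination cells. Over all cells 13 members were lower in each of anti-PD-1 and ATT-I; the combination had 1 higher and 10 lower against vehicle, 9 higher and 1 lower against anti-PD-1, and 8 higher and 2 lower against ATT-I; of all genes 43.4% and 44.3% were lower in anti-PD-1 and ATT-I, and for the combination 10.5% and 19.6%, 35.5% and 8.74%, and 37.3% and 6.15% were higher and lower.

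Differences of the mean log values as deposited, which understate low genes, gave all-cell medians of -0.13, -0.13, 0.21 and 0.20 (anti-PD-1 and ATT-I over vehicle, then the combination over anti-PD-1 and ATT-I), and CD8-gated ones of -0.27, -0.22, 0.29 and 0.26. They left 1 member lower in anti-PD-1, 0 in ATT-I, 0 higher and 0 lower in the combination against vehicle, and 1 and 3 higher against anti-PD-1 and ATT-I, beside 0.968%, 0.436%, 0.226%, 0.0452%, 1.62% and 1.24% of all genes. Relative to the median gene, all-cell medians were -0.53 for anti-PD-1 against vehicle and 0.92 for the combination over anti-PD-1, and the CD8-gated one for anti-PD-1 against vehicle -0.99; 1 member was higher and 15 lower in anti-PD-1, 1 higher and 18 lower in ATT-I, and 10 higher in the combination than in vehicle, beside 19.2% and 20.2%, 13.9% and 17.4%, and 7.44% of all genes. Pooled levels gave all-cell medians of -0.44 for ATT-I against vehicle and 0.92 over anti-PD-1 and 0.79 over ATT-I for the combination, and CD8-gated ones of -0.92, -0.53, 0.93 and 0.64, with 1 member higher and 16 lower in ATT-I and 3 higher in the combination than in vehicle, beside 4.44%, 26.8% and 4.59% of all genes. A filter at 25% of cells left 2 members higher in the combination than in vehicle, and leaving out cells with lost single UMIs left 3. At the smaller fold tried 16 were higher and 4 lower in that comparison, and at 2-fold 1 and 0. At 2-fold 14 were lower in anti-PD-1 and 14 in ATT-I. The share of all genes was not computed at these folds and is not given for the filter or the cells left out. These counts therefore cannot be read against the shift over all genes. Gates from 1 UMI gave summed levels of 13.8 for Foxp3 and 17.2 for Klra6 in anti-PD-1, and thinning to 5000 UMIs gave 14 members in the median vehicle CD8-gated cell. The cause of these moves was not tested. With 48 vehicle CD8-gated cells, members of few UMIs such as Gins1 have intervals wider than their differences.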
